A study of Mus musculus with 10 samples.

Results

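Fibroblast growth factor (FGF) genes were examined in samples of spermatogonia on 10 one-colour expression arrays. The RNA was bulk, and which cells of a sample made a transcript was not tested. The 10 genes considered were Fgf1, Fgf2, Fgf4, Fgf5, Fgf7, Fgf8, Fgf9, Fgf10, Fgf13 and Fgf18, each found on the array by its symbol. Together they were read by 16 of the 55681 non-control probes, and 5 of them (Fgf1, Fgf2, Fgf8, Fgf13 and Fgf18) had more than 1 probe. The arrays fell into 4 groups of mouse cells. Cultured germline stem (GS) cells, wild-type spermatogonia that self-renew in vitro, went without GDNF and FGF2 for 3 days before a further 24 hr with 100 ng/ml recombinant human FGF5 (2 arrays) or with no addition (2 arrays). Sorted cells were GFP+ (GFRα1+) spermatogonia, the fraction that holds the stem cells, isolated by FACS from the testes of Gfrα1-GFP knock-in mice aged 2.5 months on a C57BL/6 background, either wild type (3 arrays) or Fgf5-/- (3 arrays). All sorted cells therefore carried the GFP knock-in at the Gfrα1 locus. The GS cells came from a cross of C57BL/6 with ICR per the study's methods, whereas the labels give C57BL/6. How many animals stood behind each sorted sample, and whether the cultures held feeder cells, is not given in the sources used here. The replicates are described as independent experiments.

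FGFs form a family of signalling proteins grouped by sequence. Most are secreted, bind heparan sulphate and signal through the receptor tyrosine kinases FGFR1 to FGFR4. In the testis, FGF2 is the mitogen used with GDNF to propagate GS cells, FGF9 is known for its part in fetal testis formation, and FGF5 is best known as a brake on hair growth. Fgf13 belongs to the FGF homologous factors, which stay inside the cell and bind voltage-gated sodium channels, so it is an FGF family gene but not a ligand, and the 10 genes are called family genes below. FGF5, the main ligand of the study, comes mostly from lymphatic endothelial cells next to the tubules according to the study. The study also reports Fgf4 mRNA in a like pattern and FGF8 protein in such cells of the rat. It describes GFRα1+ cell density as rising linearly with the combined gene dose of Fgf4, Fgf5 and Fgf8. The question here was which other FGF transcripts the spermatogonial samples hold and whether these respond when FGF5 is added or lacking.

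The readings rest on 60-base probes, and a gene's probes lie in different parts of its transcript, so the stretches that matter for the results are shown (5′ to 3′, 30 bases each, as deposited, with mm9 positions of the whole probe). Capitals mark bases that the Fgf18 probes have in common.
Fgf9, A_55_P2015994, chr14:58728897-58728956, + strand: atcagttcattcacactggtatcatagccc
Fgf18, A_55_P2211319, chr11:33017440-33017499, - strand: ACGAGGAAACTGCGAGAAACCAAAGTcctt
Fgf18, A_55_P1976356, chr11:33017474-33017533, - strand, last 30 bases: ttgaACGAGGAAACTGCGAGAAACCAAAGT
Fgf8, A_55_P2101508, chr19:45811355-45811414, - strand: aaggggaggggctggggagctgccttctag
Fgf8, A_55_P2108109, chr19:45811668-45811727, - strand: tggagaacaactacacggcgctgcagaacg
Fgf8, A_55_P2101506, chr19:45816855-45816914, - strand: gcagcagggctggaaagaactttacaaatc
Fgf13, A_55_P2139809, chrX:56316415-56316474, - strand: aagaaggactgccaaattttctcatgatct
Fgf13, A_55_P2139814, chrX:56504014-56504073, - strand: attaaagaaaaaagagtccccctttcgtgc
Fgf5, A_52_P569375, chr5:98705980-98706039, + strand: atggagatctatgaagtataagtgttcacc

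The Fgf18 probes overlap by 26 bases, so they read nearly the same piece of the transcript and are not independent of each other. The third Fgf8 probe starts 5.5 kb from the first, toward the 5′ end of the gene, and the Fgf13 probes start 188 kb apart. No gene annotation of the mm9 build was used here, so the probes are not assigned to exons or untranslated regions.

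Levels are given as the log2 signal of a probe minus the 75th percentile of its array. They may be compared between arrays for 1 probe, but not between probes. A probe was called detected when the scanner software marked it as well above background, and where a gene had several probes, the one with the highest average over the 10 arrays stood for the gene. Between 55.3% and 65.9% of probes were detected per array, the highest share in Fgf5-/- replicate 1. That array also had the lowest summed level of the 5 germ cell markers (7.20, against 7.54 to 7.58 on the other 5 sorted arrays). Every cultured array lay on 1 slide and every sorted array on another, scanned on another day, so cell material and slide cannot be told apart. On the second slide, wild-type arrays occupied 1 row and Fgf5-/- arrays the other, so genotype and slide row cannot be told apart either. On the slide of the cultures, arrays with FGF5 lay in 1 column and arrays without it in another, and replicate numbers followed the rows. There, condition and slide column cannot be told apart, nor can replicate number and slide row. All 12 markers of undifferentiated spermatogonia were detected on every sorted array, with summed levels of 7.01 to 7.28. On every cultured array at least 11 of 12 were (6.62 to 6.72). All 4 markers of differentiating spermatogonia were also detected on all 10 arrays (6.87 to 7.13 in sorted cells, 5.87 to 6.35 in culture). Summed levels of 6 spermatid markers were 2.42 to 4.09 in sorted cells and 0.72 to 1.12 in culture. Some markers of Sertoli cells, Leydig cells and macrophages were likewise detected on every array. Sums are not comparable between lists, and which cells held the FGF transcripts was not tested.

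Fgf8, Fgf9, Fgf13 and Fgf18 were detected on all 10 arrays. Fgf1 and Fgf5 were detected on all 4 cultured arrays, Fgf10 on 3, Fgf7 on 2 and Fgf2 on 1. Fgf4, a ligand of early embryos and embryonic stem cells, was not well above background on any array (levels of -6.99 to -5.81). Thus 9 of the 10 genes were detected in at least 1 culture. In the sorted cells, only Fgf8, Fgf9, Fgf13 and Fgf18 were detected on all 6 arrays, and the others that were seen at all were Fgf1 on Fgf5-/- replicate 3 and Fgf5 on Fgf5-/- replicate 1. Per array, 6 to 9 of the genes were detected in culture and 4 or 5 in sorted cells. The criterion matters for the dim genes, since the software's looser flag for a positive and significant signal was set for all 10 genes on at least 1 sorted array.

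**Figure D1:**
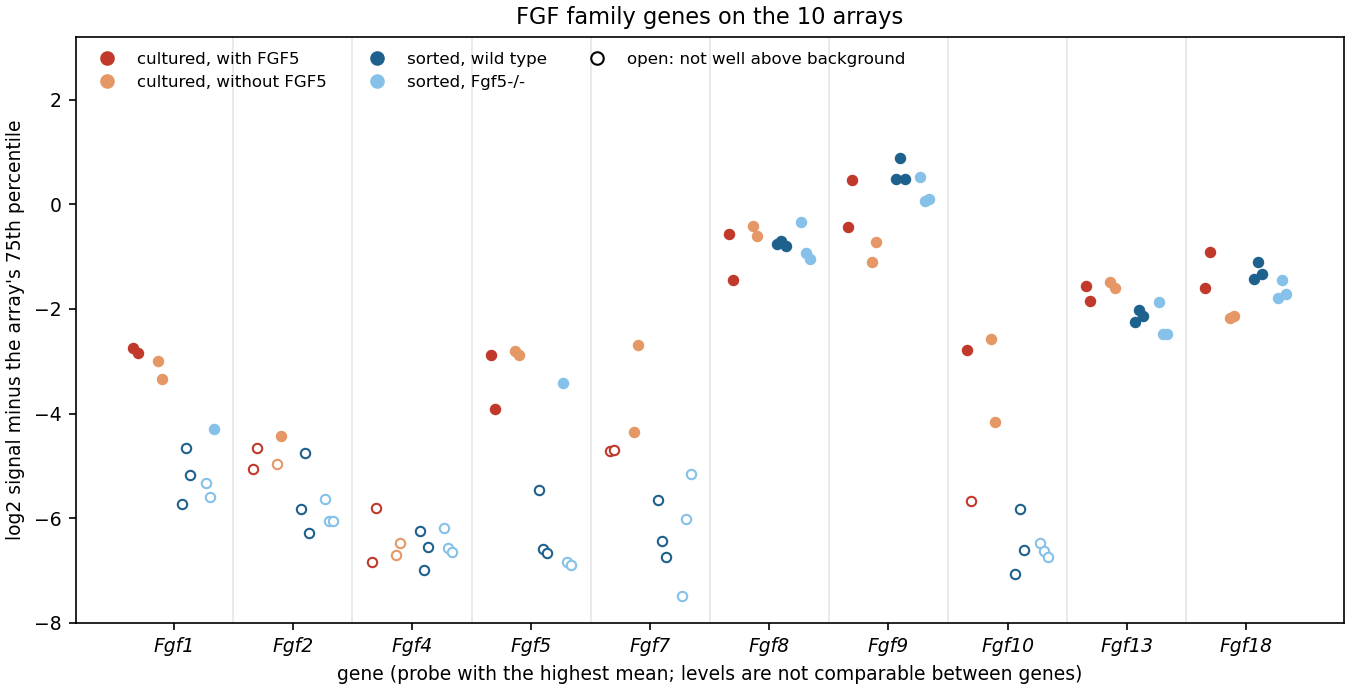
Log2 signal minus the array's 75th percentile (vertical axis) for the 10 FGF family genes (horizontal axis) on each of the 10 arrays, with 1 point per array coloured by group and open points for arrays on which the probe was not well above background. Fgf8, Fgf9, Fgf13 and Fgf18 are filled on all arrays, while Fgf1, Fgf5, Fgf7 and Fgf10 are filled mainly in culture.

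Addition of FGF5 addressed whether FGF transcripts in these cultures change when the ligand is given. Fgf9 and Fgf18 were higher with FGF5 in both replicates, by 1.90-fold and 1.86-fold on average, with a large part of it from FGF5 replicate 2, and Fgf1 was 1.30-fold higher. Fgf7, Fgf5, Fgf10, Fgf8 and Fgf13 had lower means with FGF5. None of the 8 genes tested passed the adjustment, and nor did any of the 34612 probes tested in limma (0% called, smallest adjusted p = 1.0). At an unadjusted threshold 882 of all probes (2.55%) and 2 of the 8 genes, Fgf9 and Fgf18, passed. With 2 arrays a condition the differences below are therefore descriptions of size and of agreement between replicates.

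Fgf9, a secreted ligand known to signal through FGFR2 and FGFR3, stood at -0.43 and 0.46 with FGF5 and at -1.10 and -0.73 without it. The conditions did not overlap, and FGF5 replicate 2 was the highest culture. The difference was 0.93 (SE 0.35, 95% interval 0.00 to 1.85; limma adjusted p = 1.0). Within replicate numbers it was 0.67 and 1.19, and without FGF5 replicate 2 it was 0.48.

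Fgf18, a ligand of the FGF8 subfamily with known roles in cartilage and bone, stood at -1.60 and -0.92 with FGF5 and at -2.18 and -2.14 without it. Again the conditions did not overlap. The difference was 0.90 (SE 0.27, 95% interval 0.19 to 1.61; limma adjusted p = 1.0), within replicate numbers it was 0.58 and 1.22, and without FGF5 replicate 2 it was 0.56. The overlapping probe gave a difference of 1.2 (SE 0.30), a 2.30-fold change, from levels of -2.76 and -1.98 with FGF5 and of -3.53 and -3.62 without. So for both Fgf9 and Fgf18 the larger difference was in replicate 2.

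Fgf1, a ligand that binds every FGFR, stood at -2.74 and -2.83 with FGF5 and at -3.00 and -3.34 without it (difference 0.38, SE 0.19; limma adjusted p = 1.0). Its second probe, 19.9 kb away, was detected on 1 of the 4 cultured arrays and was not tested there. The mean of both probes differed by 0.03.

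Among the genes with lower means, Fgf5 itself stood at -2.89 and -3.92 with FGF5 and at -2.81 and -2.88 without it. The groups did not overlap, but nearly all of the difference of -0.56 (SE 0.37) came from replicate 2, and without that FGF5 array it was -0.04. Fgf7, a mesenchymal ligand for the epithelial form of FGFR2, was not well above background with FGF5 (-4.71 and -4.70) and was detected on both arrays without it (-4.35 and -2.70). Its mean was 2.27-fold higher without FGF5 (1.28-fold from replicate 1 alone). The 95% interval of the log2 difference, -2.67 to 0.31, includes no change. The replicate 2 array without FGF5 carried most of the difference, which fell from -1.18 to -0.35 without that array. Fgf10, the relative of Fgf7 with the same receptor, stood at -2.78 and -5.67 with FGF5 and at -2.57 and -4.17 without. Its conditions overlapped, and the sign of the difference (-0.85, SE 1.1) turned to 0.59 when FGF5 replicate 2 was left out.

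Markers of peritubular cells and fibroblasts, cells that can express Fgf7 and Fgf10, were also present in these cultures. Of the 10 markers, 8 were detected on both arrays of each condition, while Lum and Pdgfrb were on no cultured array. Their summed level was 3.89 and 4.03 in the replicate 1 cultures, with and without FGF5, and 2.71 and 2.92 in the replicate 2 cultures. This sum was carried by Col1a1 (3.49 and 3.71 in replicate 1, 1.56 and 2.02 in replicate 2), and Fgf10 was likewise higher in both replicate 1 cultures. Acta2, Col1a2, Col3a1 and Dcn had another order. Their highest culture values (-1.27, 0.41, -1.88 and -2.10) were in replicate 2 without FGF5, the array on which Fgf7 was highest. Other markers went the other way, as Thy1 (-0.48) and Pdgfra (-1.25) had their lowest culture values on that array. Myh11 was highest in replicate 1 with FGF5 (-2.99). The part of such cells in these levels was not tested. In bulk RNA, more cells of a type and more RNA per cell cannot be told apart.

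Fgf8, which acts in gastrulation and in organ formation, stood at -0.57 and -1.45 with FGF5 and at -0.42 and -0.61 without it, a difference of -0.49 (SE 0.33) with overlapping arrays, which shrank to -0.05 without FGF5 replicate 2. Its neighbouring probe gave a closely similar difference of -0.47 (SE 0.37). Fgf13 stood at -1.55 and -1.85 with FGF5 and at -1.50 and -1.60 without (difference -0.15, SE 0.18, and -0.0041 without FGF5 replicate 2). Fgf2, the culture mitogen, was detected only on replicate 2 without FGF5 (-4.43), and on the other cultured arrays its levels were -5.07, -4.66 and -4.97. Its second probe was detected nowhere.

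Counting arrays, 3 of the 8 tested genes (Fgf1, Fgf9, Fgf18) were higher on both FGF5 arrays than on both arrays without FGF5, against 8.18% of all tested probes. A further 2 (Fgf5, Fgf7) were lower on both, against 14.5%, and Fgf7 entered the test through the arrays without FGF5 alone. The genes were chosen with earlier results of these data known, so neither count is read as a result. The median difference over the 8 genes was -0.32, beside -0.03 over all tested probes, and nothing is read from it, since Fgf7 and Fgf10 passed the filter through the condition where they were higher.

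FGF response genes served as a readout of the added ligand, with the reservation that the list was drawn up with earlier results of these data known. All 11 had a higher mean with FGF5, with a median difference of 0.83, and none was called (limma). Dusp6, an ERK phosphatase induced by FGF signalling, stood at 2.26 and 4.06 with FGF5 and at -1.33 and -1.53 without it. Etv5, an ETS transcription factor needed for spermatogonial self-renewal, stood at 3.05 and 4.32 with FGF5 and at 0.51 and -0.99 without. Replicate 2 with FGF5 was again the highest culture for both, as it was for Fgf9 and Fgf18. The smallest difference in the list was that of Etv1 (0.03), which turned negative (-0.02) under another background correction.

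**Figure D2:**
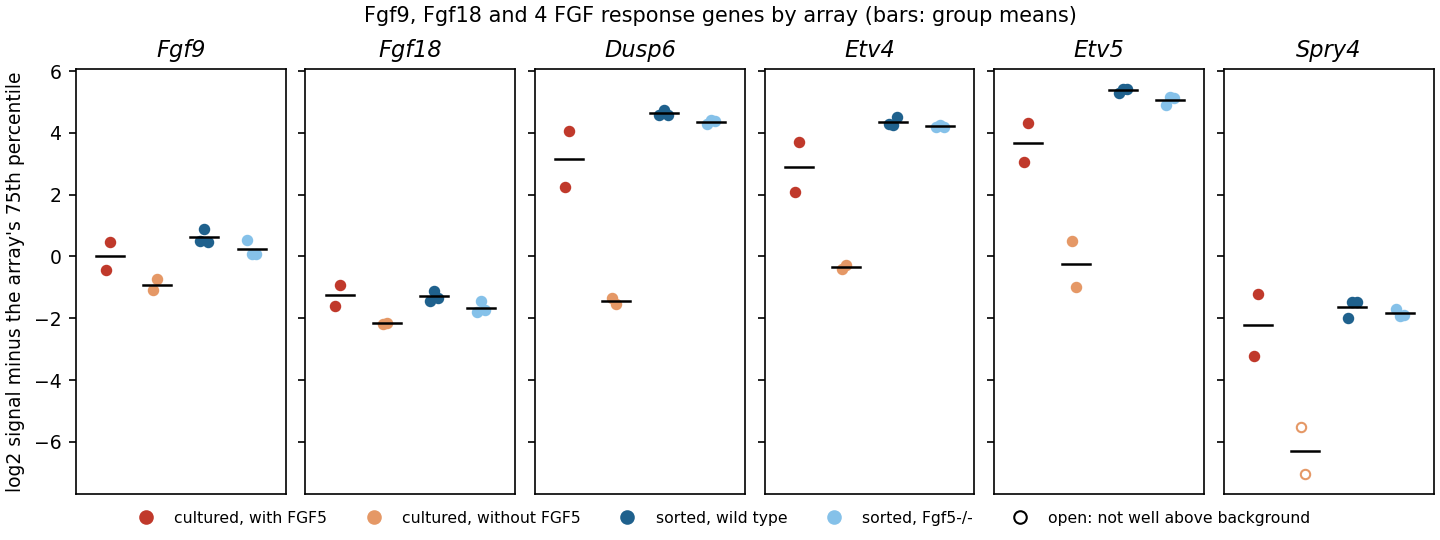
Log2 signal minus the array's 75th percentile (shared vertical axis) of Fgf9, Fgf18 and the FGF response genes Dusp6, Etv4, Etv5 and Spry4 on each array, coloured by group, with bars for group means and open points where the probe was not well above background. In every panel both cultures with FGF5 lie above both cultures without it. For Fgf9 and Fgf18 the gap is 0.93 and 0.90, and for Dusp6 it is 4.59.

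In sorted cells, the comparison of Fgf5-/- with wild type asked the converse, whether loss of the ligand changes these transcripts in vivo. All of Fgf8, Fgf9, Fgf13 and Fgf18 had a lower mean in Fgf5-/- cells (differences of -0.39 to -0.03), although that of Fgf8 turned positive with the percentile taken over detected probes, and none of the 4 was called. No probe of 30285 was called in limma (0%, smallest adjusted p = 0.73), though 6 were called without Fgf5-/- replicate 1, 5 without Fgf5-/- replicate 3 and 1 without wild-type replicate 2 or 3, none of them for these genes. At an unadjusted threshold 2055 probes (6.79%) and 1 of the 4 genes, Fgf18, passed. The other 6 genes were too dim in both genotypes to be tested.

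Fgf18 stood at -1.43, -1.11 and -1.33 in wild type and at -1.80, -1.44 and -1.72 in Fgf5-/- cells. The genotypes did not overlap, though wild-type replicate 1 and Fgf5-/- replicate 2 nearly met. The difference was -0.36 (SE 0.15, 95% interval -0.71 to -0.02; limma adjusted p = 0.73). The overlapping probe also separated the genotypes, with -2.55, -1.89 and -2.37 in wild type and -2.81, -2.60 and -2.95 in Fgf5-/- cells (difference -0.52, SE 0.20; limma adjusted p = 0.73).

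Fgf9 stood at 0.49, 0.88 and 0.48 in wild type and at 0.52, 0.07 and 0.09 in Fgf5-/- cells. Replicate 1 of Fgf5-/- lay among the wild-type values, and Fgf5-/- replicates 2 and 3 lay below all of them. The difference was -0.39 (SE 0.18, 95% interval -0.82 to 0.05; limma adjusted p = 0.73), and it was -0.54 without Fgf5-/- replicate 1.

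Fgf8 stood at -0.75, -0.71 and -0.79 in wild type and at -0.34, -0.94 and -1.06 in Fgf5-/- cells, a difference of -0.03 (SE 0.20). The sign rested on single arrays, with -0.25 without Fgf5-/- replicate 1 and 0.11 without Fgf5-/- replicate 3. Fgf13 stood at -2.25, -2.02 and -2.13 in wild type and at -1.86, -2.48 and -2.47 in Fgf5-/- cells (difference -0.14, SE 0.19, and -0.34 without Fgf5-/- replicate 1). For Fgf8, Fgf9 and Fgf13, replicate 1 was the highest Fgf5-/- array, and for Fgf18 it was the lowest.

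Fgf5 itself was not well above background on 5 of the 6 sorted arrays, at -5.47, -6.59 and -6.66 in wild type and at -6.83 and -6.90 in Fgf5-/- replicates 2 and 3. The exception was Fgf5-/- replicate 1, at -3.42, near the level of the cultures. This probe says nothing on the genotype of the samples, because the extent of the Fgf5 deletion relative to it is not given in the sources used here. On that array the summed level of the 8 endothelial markers was 2.09, against 2.52 to 2.78 on the other sorted arrays, mostly through Kdr (0.81 against 1.60 to 2.04), whereas Pecam1 (-2.51) was the highest of the sorted values. Of the lymphatic markers, Prox1 and Flt4 were not well above background there, nor on other sorted arrays except wild-type replicate 3 for Flt4. Lyve1 was detected there (-2.24, against -2.55 to -2.09 on the other sorted arrays). So was Cd34 (0.73, against 0.77 to 1.19), which marks these endothelial cells in the study. The sum of the 10 peritubular and fibroblast markers was 2.70, against 2.34 to 2.57, mostly through Col1a1, whereas Acta2 (-4.35) was at its lowest. The part of such cells in the Fgf5 level was not tested. Fgf1 was detected in Fgf5-/- replicate 3 alone (-4.29), and its second probe on wild-type replicates 2 and 3 and Fgf5-/- replicate 1, so neither gives a steady reading in sorted cells. The levels of Fgf2, Fgf4, Fgf7 and Fgf10 lacked the detection flag on all 6 arrays and lay between -7.49 and -4.75.

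Over the 4 tested genes, none was higher on every Fgf5-/- array than on every wild-type array, against 7.01% of all tested probes, and 1 (Fgf18) was lower on every one, against 9.2%. Their median difference was -0.25, beside -0.03 over all tested probes. Of the 11 response genes, 10 had a lower mean in Fgf5-/- cells, with a median of -0.14, and 1 of these (Spred1) changed sign after quantile normalization. Etv5 showed 5.28, 5.44 and 5.41 in wild type and 4.91, 5.15 and 5.14 in Fgf5-/- cells without overlap (difference -0.31). No response gene was called. Thus the pair Fgf9 and Fgf18, which had the highest differences of the 8 genes when FGF5 was added, had the lowest of the 4 when Fgf5 was lacking. The first order did not hold without FGF5 replicate 2, where Fgf10 (0.59) was highest. The second did not hold without Fgf5-/- replicate 1, where Fgf13 (-0.34) lay below Fgf18 (-0.29), or with the mean of all probes of a gene, where Fgf8 (-0.48) was lowest. These are separate sets of arrays, no difference passed the adjustment in either, and the relation between them was not tested.

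**Figure D3:**
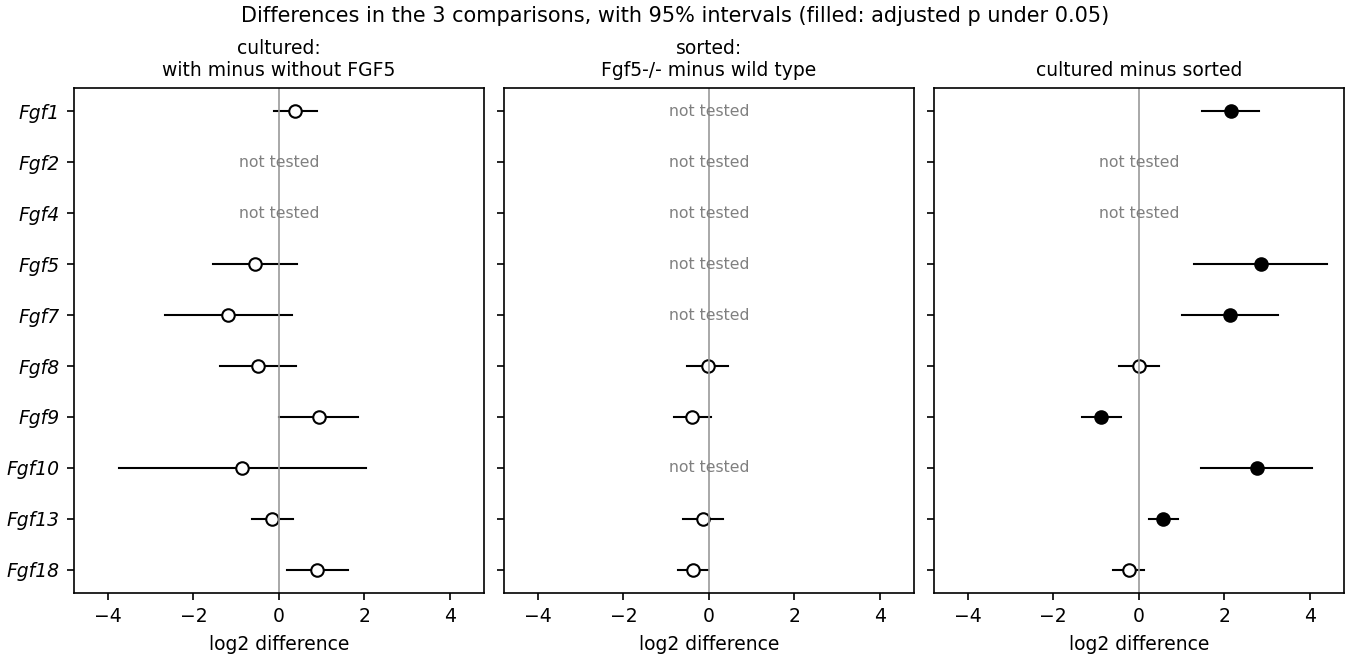
Log2 difference (horizontal axis) of each FGF family gene (vertical axis) in cultures with minus without FGF5 (n = 2 and 2), in sorted Fgf5-/- minus wild-type cells (n = 3 and 3) and in cultured minus sorted cells (n = 4 and 6), with 95% intervals and filled points for an adjusted p under 0.05. Fgf9 and Fgf18 lie right of 0 in the first panel and left of 0 in the second, and filled points occur in the third panel only.

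Most calls fell between cultured and sorted cells. Fgf1, Fgf5, Fgf7, Fgf10 and Fgf13 were higher in culture, and Fgf9 was lower, each past the adjustment, whereas Fgf8 and Fgf18 were not called. That is 6 of 8 tested genes, beside 67.7% of the 35826 probes tested in limma, a share near that of the whole array. Of all probes, 41.9% were called higher in culture and 25.7% lower, against 5 and 1 of the 8 genes. Of the 5, Fgf1, Fgf5, Fgf7 and Fgf10 passed the detection filter only through cultured groups, where they were higher. Neither the count, nor the direction over the genes, nor the calls of these genes are therefore read as a result. Their sizes are given below as lower bounds. Of the probes called, 62% were higher, and 79.6% when the percentile was taken over detected probes only. The median of all tested probes was itself 0.26 (0.60 under that scaling and 0.12 after quantile normalization). Differences below are to be read against this shift, and the slide moved with the cell material.

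Of the secreted ligands seen in culture, Fgf5 had a mean of -3.40 with and -2.85 without FGF5, and it was not detected in wild-type sorted cells (mean -6.24). It was at least 3.78-fold higher in culture than in wild-type sorted cells. For cultures with FGF5 alone the bound was 3.11-fold, and it fell to 2.18-fold without FGF5 replicate 1. No bound was set against Fgf5-/- cells, where replicate 1 (-3.42) was well above background. Fgf1 was likewise at least 4.07-fold higher in culture (means -2.79 and -3.17) than in wild-type sorted cells (mean -5.19). Again no bound was set against Fgf5-/- cells, where replicate 3 (-4.29) was detected. The second Fgf1 probe did not show this step, with levels of -5.27 to -4.62 in culture and of -6.53 to -3.02 in sorted cells.

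Fgf10 was at least 3.36-fold higher in cultures without FGF5 (mean -3.37) than in either sorted group (means -6.50 and -6.62). This bound falls to 1.93-fold without replicate 1 and rises to 5.84-fold without replicate 2. Fgf7 was at least 2.98-fold higher in the same cultures (mean -3.52) than in wild-type sorted cells (mean -6.28). Its bound falls to 1.68-fold without replicate 2 and rises to 5.30-fold without replicate 1. Summed levels of fibroblast markers were 2.71 to 4.03 in culture and 2.34 to 2.70 in sorted cells. Single markers moved further, as Col1a2 stood at -0.15 to 0.41 in culture and at -4.14 to -2.67 in sorted cells and Acta2 at -1.94 to -1.27 and at -4.35 to -3.30, while Pdgfrb went the other way (-5.79 to -4.89 and -3.55 to -2.94). The part of such cells in these differences was not tested.

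Fgf9 went the opposite way. All 6 sorted arrays (0.07 to 0.88) lay above both cultures without FGF5 (-1.10 and -0.73), and FGF5 replicate 2 (0.46) lay within the sorted range. The difference between cultured and sorted cells was -0.87 (SE 0.20; limma adjusted p = 0.0049), that is 1.83-fold lower in culture, and it widened to -1.53 when only cultures without FGF5 and wild-type cells were set against each other. With the percentile taken over detected probes it was -0.53 and no longer passed (adjusted p = 0.13).

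Fgf18 had a like order, with the cultures without FGF5 (-2.18 and -2.14) below all 6 sorted arrays (-1.80 to -1.11) 1 culture with FGF5 (-1.60) among them and the other (-0.92) above them. Over both culture conditions the difference was -0.24 (SE 0.15; limma adjusted p = 0.20). Without FGF5 replicate 2 it was -0.41 and passed (adjusted p = 0.031). For cultures without FGF5 against wild type alone it was -0.87 (adjusted p = 0.0066), and under the scaling by detected probes the overall sign turned (0.10). Fgf8 had overlapping ranges in culture (-1.45 to -0.42) and in sorted cells (-1.06 to -0.34), with a difference of 0.00 (SE 0.20, 95% interval -0.46 to 0.47). Fgf13 was 1.49-fold higher in culture (0.58, SE 0.15; limma adjusted p = 0.0085), with all cultured arrays (-1.85 to -1.50) above the highest sorted array (-1.86). Its distal probe was detected on all 4 cultured arrays (-3.92 to -3.06), on wild-type replicates 1 and 2 (-4.44 and -4.16) and on no Fgf5-/- array. Against Fgf5-/- cells alone, lower bounds were 2.16-fold with FGF5 and 2.98-fold without. They fell to 1.94-fold and 2.52-fold when replicate 1 of the culture group was left out. This probe passed the detection filter only through the cultured groups, so these bounds are not read as a result.

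**Figure D4:**
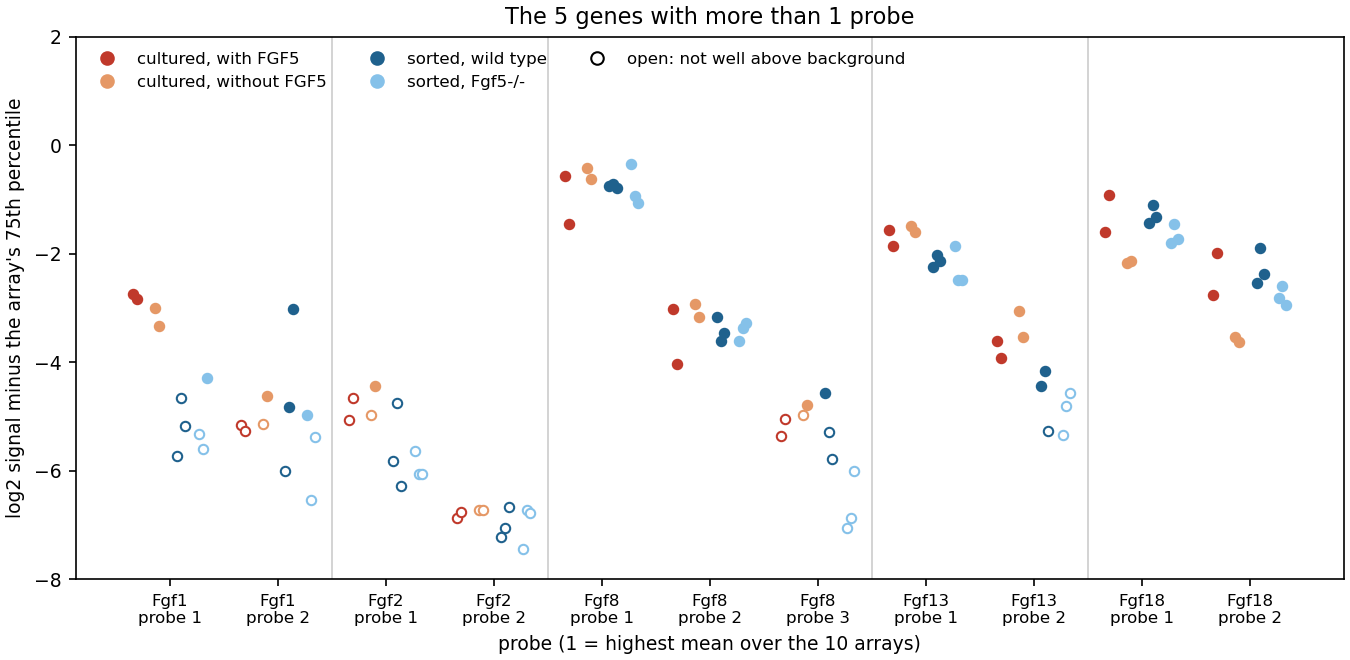
Log2 signal minus the array's 75th percentile (vertical axis) for each probe (horizontal axis) of the 5 genes with more than 1 probe, with 1 point per array coloured by group and open points where the probe was not well above background. Both Fgf18 probes are lowest in the cultures without FGF5, while the second Fgf1 probe lacks the culture-to-sorted step of the first.

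Probes of 1 gene did not always have the same order. For Fgf8, the probe 313 bases from the first was detected on all arrays at a lower level and differed little between cultured and sorted cells (0.13, SE 0.20), but Fgf5-/- replicate 1, the highest Fgf5-/- array on the first probe, was the lowest on this one (-3.60 against -3.37 and -3.27). The third was detected only on culture replicate 2 without FGF5 and wild-type replicate 1. On that dim probe the Fgf5-/- arrays (-7.04, -6.86 and -6.00) lay below the wild-type arrays (-4.56, -5.27 and -5.78), which the brighter probes did not show. It was not tested, being well above background throughout no group.

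Receptors for these ligands were present in both materials. Fgfr1, Fgfr2, Fgfr3 and Fgfr4 were detected on all 10 arrays, and of the 13 receptors, co-receptors and adaptors listed, 12 were tested in each comparison. None was called when FGF5 was added (median difference -0.08) or lacking (median -0.04). Between cultured and sorted cells, 6 were called higher and 2 lower in culture, with a median of 0.42. That is 66.7% of the 12, near the 67.7% of all tested probes, so the count is not read as a result. Fgfr3 was lower in culture (-0.68; limma adjusted p = 0.0020), but not past the adjustment with the percentile over detected probes (-0.34), and another probe of it detected on all arrays had a difference of 0.30. Fgfr1 (0.45; adjusted p = 0.0064) and Fgfr2 (0.93; adjusted p = 0.00048) were higher. The difference in Fgfr4 (0.25; adjusted p = 0.31) changed sign after quantile normalization. Of the 11 response genes, 9 were called lower in culture (81.8%, beside 25.7% of all tested probes), with a median of -2.19. Dusp6, at 4.28 to 4.76 in sorted cells and at -1.53 to 4.06 in culture, had its lowest values in the cultures without FGF5, as Fgf9 and Fgf18 did.

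Among the other 12 FGF genes, 7 were tested between materials, and 5 were called higher and 1 lower in culture (median 0.97). That is 85.7% called, beside 67.7% of all tested probes (41.9% higher and 25.7% lower in culture). Fgf12, an intracellular relative of Fgf13, was detected on all 6 sorted arrays and on no cultured array. Fgf15, a hormone-like FGF, was detected on all 4 cultured arrays and on no sorted array. Fgf12 and Fgf15 passed the detection filter only through the material where they were higher, so their calls are not read as a result. Of the other 12 FGF genes, none was called when FGF5 was added or lacking.

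Genes whose level followed Fgf8, Fgf9, Fgf13 and Fgf18 most closely were sought among 19725 named genes detected on every array. Over the 10 arrays, Fgf9 was followed most closely by Lhx1 (Pearson r = 0.97), a homeobox gene among the spermatogonial markers, then by Plk3 and Ssfa2. For Fgf18 these were Pdgfb (r = 0.95), Lonp2 and Phlda1, for Fgf8 Chd1 (r = 0.98), Ptch1 and Mbnl1, and for Fgf13 the closest was Rfx7 (r = 0.98). The arrays share slides by cell material, so such likeness includes the step between slides. Within the 6 sorted arrays, other genes came first, and 0 of the 3 nearest were shared with the full set for each of the 4.

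RefSeq promoters (GRCm38.p6) were matched by symbol for 8 of the 10 genes. Those of Fgf9 and Fgf18, the pair that was highest with FGF5, are shown as the 250 bases before the start on the gene's strand.
Fgf9, chr14:58072436-58072685, + strand: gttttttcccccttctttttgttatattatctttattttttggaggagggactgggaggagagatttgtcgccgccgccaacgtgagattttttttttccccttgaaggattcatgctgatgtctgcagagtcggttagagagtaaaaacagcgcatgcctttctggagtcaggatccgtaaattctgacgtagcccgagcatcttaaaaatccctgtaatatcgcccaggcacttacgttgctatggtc
Fgf18, chr11:33147401-33147650, - strand: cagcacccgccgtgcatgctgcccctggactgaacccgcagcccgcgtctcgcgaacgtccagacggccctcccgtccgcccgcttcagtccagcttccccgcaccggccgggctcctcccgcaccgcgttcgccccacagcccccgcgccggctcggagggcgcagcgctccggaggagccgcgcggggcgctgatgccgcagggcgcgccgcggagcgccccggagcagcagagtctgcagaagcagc

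The promoters differ in composition. That of Fgf9 holds 44.8% G and C, below the median of 52.4% over 32851 promoters, and that of Fgf18 holds 77.2%. Motifs for factors downstream of ERK signalling were searched on both strands, namely TGACTCA for AP-1, TGACGTCA for CRE and CCGGAAGT for ETS. They occur in 4.46%, 1.55% and 2.88% of all promoters of this length and in 0 of the 11 promoters of the 8 genes. These letters are thus not in these windows.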

How the data were processed

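Agilent whole mouse genome arrays (1 colour, Cy3) were scanned and extracted by the authors with Feature Extraction (10.7.3.1 per the labels, 10.7.1.1 per the file headers), which gave the deposited intensity values (background-corrected signals) and detection flags. The deposited log2 table of the authors holds nearly the same signals after a per-array shift, with its centring not stated, and served as an alternative. Sorted-cell files lack gene names, which were taken by probe from the culture files. Here, signals were floored at 1, log2-transformed and shifted by each array's 75th percentile, flagged spots were left out, and spots of a probe were averaged. Arrays were compared as unpaired groups in limma 3.58.1 (R 4.3.3) with Benjamini-Hochberg adjustment over all tested probes. Testing required that the detection flag was set throughout 1 group or more, and probes were called at an adjusted p under 0.05. The fits were tested on simulated data with known log2 changes of 1 and 2. After adjustment the culture fit called 0% of the changed probes at either size. The sorted fit called 49% and 83%, and the fit between materials 60% and 90%. All 16 probes of the 10 genes are described, other genes are counted from lists and named where called or set beside a member, and likeness took the 3 genes of highest Pearson r. For Fgf13 only the first of these is given, since 1 item is not reported here. Alternatives covered scaling, background correction, filters, floors, the authors' table, a replicate block and each array left out. Members and gene lists were chosen with earlier results of these data known. "At least" folds set the mean of the bright group against, per array, the lowest detected signal or the probe's own. The number of arrays limits the precision.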

Additional observations from a re-analysis of the deposited data

How the results depend on the processing

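With FGF5 added or lacking, 0 of the 10 genes were called under every alternative, each array left out included, which says nothing about stability, since no probe of the array was called in the culture comparison under any of them; a group left with 1 array was assumed to vary like the rest. Over all probes, 0 to 6 were called in sorted cells when 1 array was left out, namely 1 without wild-type replicate 2 or 3, 6 without Fgf5-/- replicate 1 and 5 without Fgf5-/- replicate 3. Between materials 6 to 7 of the genes were called with 1 array left out, and 2 when probes had to be detected on every array, since only 4 of the genes could then be tested. Fgf9 kept its direction in all 3 comparisons, and Fgf18 in culture and in sorted cells, under every setting run. Fgf18 between materials was called after quantile normalization (-0.46), without FGF5 replicate 2 (-0.41) and for cultures without FGF5 against wild type (-0.87), and reversed to 0.10 under the percentile over detected probes, where Fgf9 (-0.53) was no longer called. Fgf8 reversed between materials after quantile normalization (-0.11), in the authors' table (-0.050) and with 1 array left out (-0.22 to 0.22), and in sorted cells under the percentile over detected probes (0.0088) and with 1 array left out (-0.25 to 0.11). Fgf10 in culture ranged from -2.30 to 0.59 with 1 array left out. Causes were not tested. Under the looser detection flag, 10 of the genes were seen on at least 1 sorted array in place of 6. Replicate numbers do not establish pairs. In culture, deviations of equally numbered arrays, which also shared a slide row, correlated at 0.64. With the replicate block 0 of 8 genes were called there (Fgf9 limma adjusted p = 0.57). In sorted cells the correlations were -0.42, -0.16 and -0.15, and 0 of 4 were called with the block. With 2 or 3 arrays a group, the differences of Fgf9 and Fgf18 did not pass the adjustment, and signals near background limit Fgf1, Fgf2, Fgf4, Fgf5, Fgf7 and Fgf10 in sorted cells.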
